A study of Arabidopsis thaliana with 12 samples.

Results

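EXPB1 (AT2G20750) and EXPB2 (AT1G65680) are 2 of the beta-expansin genes of Arabidopsis thaliana. Each was read by 1 probe set of the Affymetrix ATH1 array, 265443_at for EXPB1 and 264640_at for EXPB2, found by locus in the array's annotation among 22746 probe sets that are not controls. Both probe sets are annotated to a single gene. In the RefSeq annotation the gene next to EXPB2 is another beta-expansin, EXPB6, for which no probe set is named here. Whether transcripts of EXPB6 hybridise to the probe set of EXPB2 was not tested.

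The samples were whole seedlings of the line Col:LUC in the Col-0 background, grown for 10 days on B5, a plant culture medium, and for 3 days more on fresh plates. One set of plates held B5 with 4.5 µM NAA (1-naphthaleneacetic acid, a synthetic auxin) and the other B5 alone. On each medium some seedlings were given 50 µM antimycin A for 3 hours, which blocks complex III of mitochondrial respiration. This gave 4 groups of 3 arrays: NAA medium with antimycin A (NAA+AA), NAA medium without it (NAA), B5 with antimycin A (B5+AA) and B5 without it (B5). The labels call the replicates a biological triplicate, and all 12 arrays carry the Col:LUC background. The growth protocol also names Attim17-1 seeds, a genotype to which none of the 12 arrays is labelled. The sources used here do not say whether seedlings without antimycin A received its solvent, so that an effect of the solvent and one of antimycin A cannot be told apart.

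Expansins are secreted proteins that loosen plant cell walls without cutting the wall polymers, by loosening the contacts between cellulose and the polysaccharides around it. Plants hold alpha and beta families and smaller families of expansin-like proteins, and the members differ in the organs and cells in which they are transcribed. Auxin acidifies the wall, which favours expansin activity, and is known to induce transcripts of some expansin genes.

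The values are the deposited linear intensities, whose medians were 33.7 to 39.7 over the 12 arrays. Arrays of a group correlated at 0.990 to 0.997 over probe sets, on the log2 scale. Both treatments were visible in the genes fixed as checks. NDB2, an alternative NAD(P)H dehydrogenase of the mitochondrion, averaged 692 ± 38.9 in NAA+AA seedlings and 163 ± 42.4 in NAA seedlings (SD, n = 3 each), and 557 ± 140 in B5+AA against 113 ± 8.34 in B5 seedlings. AT2G21640, the other antimycin A check, averaged 2401 ± 351 in NAA+AA against 52.4 ± 17.1 in NAA seedlings. LBD29, which encodes a LOB-domain regulator that starts lateral roots, averaged 259 ± 45.8 in NAA and 5.68 ± 0.05 in B5 seedlings, and the auxin-conjugating enzymes GH3.3 and WES1 (GH3.5) also rose with NAA (log2 changes of 6.57 and 4.75). GH3.3 and WES1 rose with antimycin A on B5 as well (5.33 and 1.59). Seedlings hold shoots and roots. The 4 measured shoot markers of 8 fixed (LHCB4.2, PSAN, PSAE-1, PRK) summed to at least 8913 on every array, and the 2 measured root hair markers of 9 fixed (EXPA7, EXPA18) summed to at least 20.7. EXPA7 alone read as low as 4.68, in B5+AA seedlings.

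EXPB2 was bright in a single group. It read 11.9, 25.4 and 13.65 on the arrays of NAA+AA seedlings, 534.0, 550.0 and 876 on those of NAA seedlings, 5.0, 5.41 and 5.58 on those of B5+AA seedlings and 8.10, 5.57 and 4.96 on those of B5 seedlings. The 3 NAA arrays stood far above the other 9, and the NAA+AA arrays lay above all 6 arrays on B5 without overlap. The B5 and B5+AA arrays lay at the low end of the arrays, where EXPB2 was brighter than 10.9% to 30.5% of probe sets. The 3 control probe sets named TrpnX read 5.16 to 8.04, and the probe set of EXPB5, another beta-expansin, 4.15 to 4.63, so that EXPB2 on B5 medium was about as dim as these. In NAA seedlings it was brighter than 89.9% to 93.4% of probe sets.

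EXPB1 was dim throughout and brightest in seedlings that had neither treatment. It read 6.49, 7.06 and 9.30 on the NAA+AA arrays, 20.5, 13.55 and 17.55 on the NAA arrays, 10.2, 7.23 and 7.14 on the B5+AA arrays and 49.6, 38.6 and 29.6 on the B5 arrays. The B5 arrays lay above all others, the NAA arrays came next, and the 2 antimycin A groups overlapped each other at the bottom. EXPB1 was brighter than 47.7% to 54.5% of probe sets in B5 seedlings, near the middle of the array, and than 23.4% to 34.6% on the arrays with antimycin A, 4 of which lay within the TrpnX range.

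**Figure D1:**
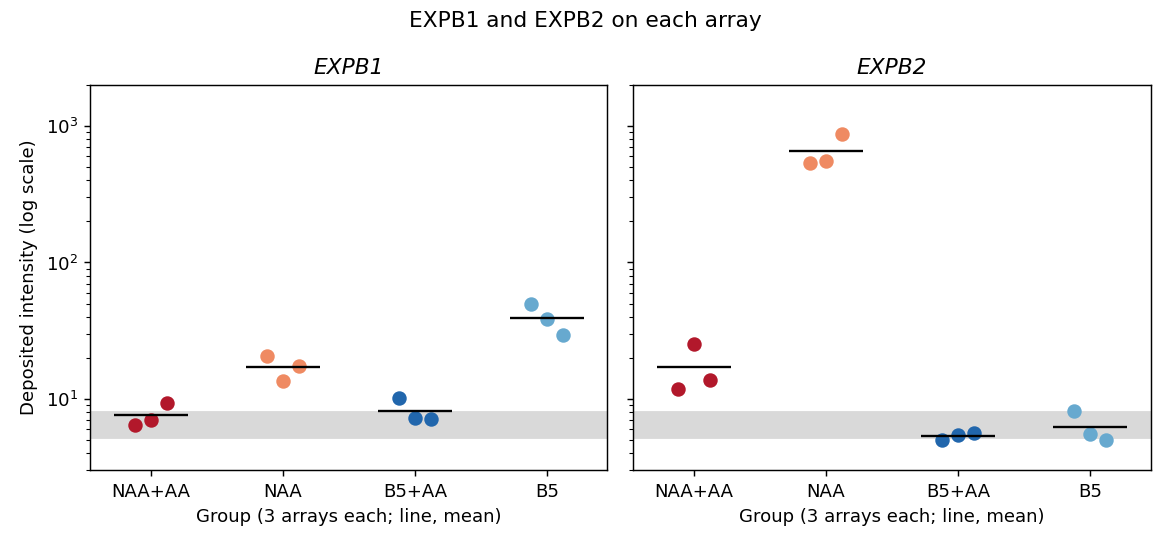
Deposited intensity of EXPB1 (left) and EXPB2 (right) on each array, on a log axis, with 3 points per group, a line at the group mean and a grey band over the range of the TrpnX control probe sets (5.16 to 8.04). The 3 NAA arrays of EXPB2 sit between 534.0 and 876, all other arrays of EXPB2 at or below 25.4, and EXPB1 is highest on the B5 arrays.

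The relative spread between replicates was 19.5% to 25.4% of the mean in each group for EXPB1. For EXPB2 it was 43.3% in NAA+AA, 29.5% in NAA, 5.59% in B5+AA and 26.8% in B5 seedlings. All tests below come from 1 limma fit over the 12 arrays, on log2(intensity + 16), with p-values adjusted over all 22746 probe sets by the Benjamini-Hochberg method and a call at an adjusted p below 0.05. The fit gives each probe set 1 spread for all groups. The spread of EXPB2 on this scale was far from equal, with an SD of 0.39 in NAA and 0.02 in B5+AA seedlings. Adding 16 before the log damps changes among dim values, so that ratios of mean intensity are given beside the log2 changes. Where a group lies at the low end of the array, near the TrpnX controls, background is part of its values, and the size of a ratio, a log2 change or a difference of changes that uses it is set in part by that low end and by the 16 added.

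NAA without antimycin A moved the 2 genes in opposite directions. EXPB2 averaged 653 ± 193 in NAA seedlings and 6.21 ± 1.66 in B5 seedlings (SD, n = 3 each), a 105-fold higher mean intensity. Its log2 change was 4.88 ± 0.20 (SE), with an adjusted p of 1.13e-06 by limma. The B5 values lay in or near the TrpnX range, and the log2 change was 6.49 with a pseudocount of 1 and 3.32 with one of 64. EXPB1 averaged 17.2 ± 3.47 in NAA and 39.3 ± 9.99 in B5 seedlings, a 2.28-fold lower mean intensity (log2 change -0.72 ± 0.13, adjusted p = 0.00368 by limma). For both genes the NAA and B5 arrays did not overlap, which held for 18.2% of all probe sets with NAA higher and 21.1% with NAA lower. Both members were called, 1 higher and 1 lower, where 10.7% of all probe sets were called higher and 9.67% lower. With each array centred on its median the split over all probe sets was 2136 higher and 9866 lower, against 2437 higher and 2200 lower without, while EXPB2 had a log2 change of 4.79 and EXPB1 one of -0.82. With a pseudocount of 1 the log2 change of EXPB1 was -1.13.

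Antimycin A on NAA medium was followed by low values of both genes. EXPB2 averaged 17.0 ± 7.36 in NAA+AA seedlings and 653 ± 193 in NAA seedlings, so that 2.60% of the NAA mean was left after 3 hours. The brightest NAA+AA array lay 21.0-fold below the dimmest NAA array. The log2 change was -4.33 ± 0.20 (SE), with an adjusted p of 1.31e-06 by limma. EXPB1 averaged 7.62 ± 1.49 in NAA+AA and 17.2 ± 3.47 in NAA seedlings, a 2.26-fold lower mean (log2 change -0.49 ± 0.13, adjusted p = 0.0217 by limma), again without overlap. Both members were thus called lower, against 13.2% of all probe sets, and 18.9% had non-overlapping lower arrays. The rise of EXPB2 with NAA and its fall with antimycin A are both measured against the same 3 NAA arrays, so that these 2 changes are not independent of each other. The call of EXPB1 was lost in 5 of 21 alternatives, namely with a pseudocount of 64 (-0.18, adjusted p = 0.0693) and without NAA replicate 1 (-0.42, 0.0809), NAA replicate 3 (-0.48, 0.0569), NAA+AA replicate 1 (-0.45, 0.0686) or NAA+AA replicate 2 (-0.47, 0.0646), over a range of adjusted p of 0.00462 to 0.0809. In a whole seedling, fewer cells that carry a transcript and less of it per cell cannot be told apart.

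On B5 medium EXPB1 fell with antimycin A, while EXPB2 was at the low end of the array with and without it. EXPB1 averaged 8.18 ± 1.72 in B5+AA and 39.3 ± 9.99 in B5 seedlings, a 4.80-fold lower mean intensity. The log2 change was -1.18 ± 0.13 (SE), with an adjusted p of 0.000107 by limma, and the dimmest B5 array lay 2.92-fold above the brightest B5+AA array. With a pseudocount of 1 the log2 change was -2.12, and with 64 it was -0.51, both with a call. This fall of EXPB1, its fall with NAA and its change with both treatments are measured against the same B5 arrays, so that they are not independent of each other. EXPB2 averaged 5.33 ± 0.30 in B5+AA and 6.21 ± 1.66 in B5 seedlings and was not called (log2 change -0.06, 95% interval -0.50 to 0.39). Whether the array could show a lower level at such values was not tested. In this comparison 1 of the 2 members was called lower, against 18.7% of all probe sets, and 24% had non-overlapping lower arrays.

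Among seedlings given antimycin A, neither gene passed the test for NAA. EXPB2 averaged 17.0 ± 7.36 in NAA+AA and 5.33 ± 0.30 in B5+AA seedlings, 3.19-fold higher, and every NAA+AA array lay above every B5+AA array, as for 18% of all probe sets. The log2 change of 0.61 ± 0.20 (SE, 95% interval 0.16 to 1.05) missed the threshold by limma (adjusted p = 0.0568). It passed in 6 of 23 alternatives, among them a pseudocount of 1 (1.43, adjusted p = 0.00476) and the fit without NAA replicate 3, the array with the highest EXPB2 value (0.61, 0.0134), with adjusted p from 0.00476 to 0.374 over all 23. Both filters on dim probe sets were among the 6, and EXPB2 passed these filters only through its NAA arrays, which this comparison does not use. EXPB1 averaged 7.62 ± 1.49 in NAA+AA and 8.18 ± 1.72 in B5+AA seedlings, with overlapping arrays (log2 change -0.03, 95% interval -0.32 to 0.26, adjusted p = 0.879 by limma). Neither of the 2 members was called, against 22% of all probe sets (2779 higher and 2215 lower, or 2381 higher and 10984 lower with median centring).

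Seedlings with both treatments were also set against seedlings with neither. EXPB1 was 5.15-fold lower in NAA+AA than in B5 seedlings by mean intensity (log2 change -1.21 ± 0.13 (SE), adjusted p = 7.62e-05 by limma). The 1 member called lower stands against 16.1% of all probe sets (3902 higher and 3671 lower in all, or 3472 higher and 10952 lower with median centring), and its lower, non-overlapping arrays against 23.5%. With a pseudocount of 1 its log2 change was -2.21. EXPB2 was 2.74-fold higher in NAA+AA than in B5 seedlings, with no overlap, as for 23.7% of all probe sets, but was not called (log2 change 0.55, 95% interval 0.11 to 1.00, adjusted p = 0.0596 by limma). It was called in 6 of 23 alternatives, with adjusted p from 0.00544 to 0.412 over all 23, among them a pseudocount of 1 (1.27) and the fit without NAA replicate 3 (adjusted p = 0.013). Here too the 6 include both filters, which EXPB2 passed only through its NAA arrays.

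The groups were put in order for each gene by mean intensity. For EXPB2 the order was NAA, NAA+AA, B5 and B5+AA, of which the tests told only NAA apart from the others. NAA+AA was not told apart from B5 or from B5+AA (adjusted p of 0.0596 and 0.0568 by limma), nor B5 from B5+AA. For EXPB1 the order was B5, NAA, B5+AA and NAA+AA, with the last pair not told apart. The step between NAA and B5+AA, a comparison added after the values were seen, was called for EXPB1 (log2 change 0.45 ± 0.13, adjusted p = 0.0203 by limma), in which 20.9% of all probe sets were called higher.

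The contrast of the antimycin A effects on the 2 media was called for both genes, with opposite signs, but rests for each on a pair of groups at the low end of the array. For EXPB2 the effect on NAA medium minus that on B5 was -4.27 ± 0.28 (SE, log2) with an adjusted p of 0.000102 by limma. Its B5+AA and B5 means (5.33 and 6.21) were both near the TrpnX controls, so that a fall on B5 of the size seen on NAA medium could not have shown. For EXPB1 it was 0.69 ± 0.18 with an adjusted p of 0.0458 by limma. Its NAA+AA and B5+AA means (7.62 and 8.18) were near those controls, so that a difference between media at the level reached with antimycin A may not have shown. The contrast equals the change with NAA in the presence of antimycin A (-0.03) minus that in its absence (-0.72). Its closeness in size to the latter therefore follows by arithmetic and is no separate result. Both members were called, where 5.14% of all probe sets had a higher and 4.39% a lower difference. The call of EXPB1 was lost in 15 of 21 alternatives, including 11 of the 12 fits that left out 1 array (differences of 0.56 to 0.76, adjusted p from 0.0519 to 0.0997; without B5 replicate 3 it was 0.82 with an adjusted p of 0.016) and the pseudocounts of 1 (1.05, adjusted p = 0.062) and 64 (0.33, 0.051).

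**Figure D2:**
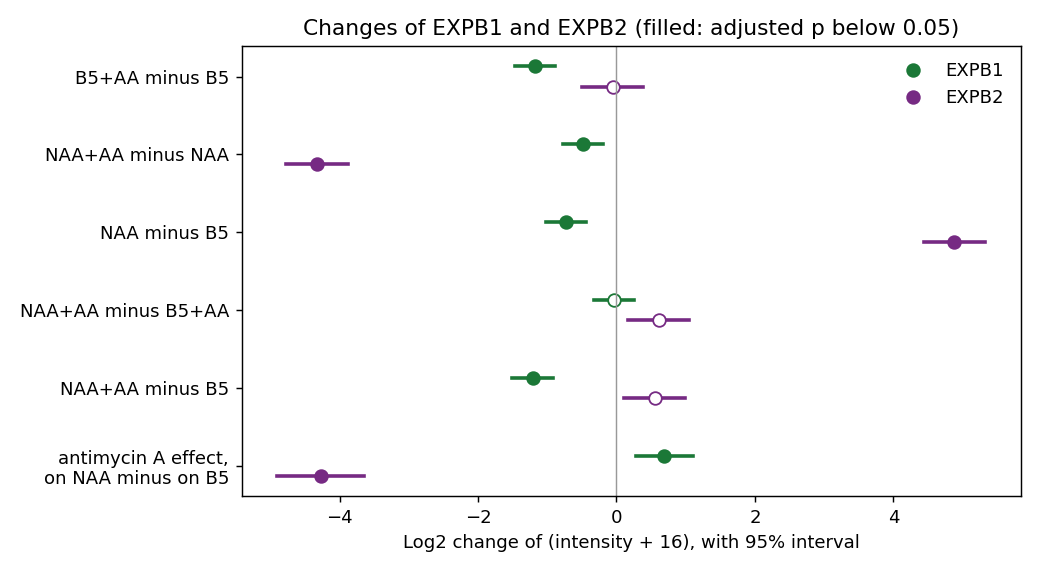
Log2 change of (intensity + 16) for EXPB1 and EXPB2 in 5 comparisons of groups and in the difference of the antimycin A effects, each with its 95% interval, filled where the adjusted p was below 0.05. EXPB2 spans -4.33 to 4.88 while EXPB1 stays between -1.21 and 0.69.

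Whether the 2 genes changed by unequal amounts was tested on the log2 difference EXPB2 minus EXPB1 within each array, by exchanging arrays within each level of the other treatment (exact permutation test, two-sided, 400 rearrangements, smallest p 0.005, 2 tests). With NAA the difference rose by 3.12 on average, 0.64 with and 5.60 without antimycin A (exact p = 0.005, adjusted 0.01). This is the smallest p the test can give. With antimycin A the average was -1.36 (exact p = 0.105, adjusted 0.105). That average joins -3.84 on NAA medium and 1.12 on B5.

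Other expansins were measured as well. The annotation names 18 expansin genes by single-gene probe sets, 10 alpha, 4 beta and 4 expansin-like, while 2 probe sets that read 2 genes each were left out and 13 of the 30 loci fixed for the family are not analysed here. EXPA24, found by its symbol, is outside these 30 loci. The 18 genes include EXPB1 and EXPB2, so that the counts below hold the calls of these members. Both are among those lower with antimycin A on NAA medium, and EXPB1 is among those lower on B5. With NAA without antimycin A, EXPB2 is among the higher and EXPB1 among the lower. Of these 18 genes 8 were called lower and 2 higher with antimycin A on NAA medium (median log2 change -0.40, against 0.01 over all probe sets), where 13.2% of all probe sets were called lower and 11.6% higher. On B5 9 were called lower and 2 higher (median -0.56, against 0.01), where 18.7% of all were lower and 14.3% higher. With NAA 6 were called higher and 3 lower without antimycin A (median -0.01, against -0.01), against 10.7% and 9.67% of all probe sets. With antimycin A 5 were called higher and 0 lower (median 0.19, against -0.01), against 12.2% and 9.74% of all. The NAA counts moved with the processing, to 15 in all without antimycin A under median centring, and with antimycin A to 9 under median centring, 8 with a pseudocount of 1 and 3 with one of 64.

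EXPB3, the third of the measured beta-expansins, had the same calls as EXPB1 in these comparisons. It read 104, 109 and 109 on the NAA+AA arrays, 261, 156 and 329 on the NAA arrays, 105, 53.2 and 73.0 on the B5+AA arrays and 593, 601 and 499 on the B5 arrays. As for EXPB1, the B5 arrays were the highest and the NAA arrays came next. EXPB3 fell with antimycin A on NAA medium (log2 change -1.04 ± 0.26 (SE), adjusted p = 0.0164 by limma) and on B5 (-2.67 ± 0.26, adjusted p = 5.21e-05). It fell with NAA in the absence of antimycin A (-1.19 ± 0.26, adjusted p = 0.0108) and was not called in its presence (0.44, adjusted p = 0.275). The difference of its antimycin A effects was 1.63 (adjusted p = 0.0248). EXPB5 stayed between 4.15 and 4.63 on all arrays and was not called in any of the 6 comparisons (limma, lowest unadjusted p 0.211).

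Among the alpha-expansins, EXPA7 and EXPA18, known from root hairs, shared the directions of EXPB2 on NAA medium. So did EXPA9, which was not among the fixed root hair markers, and the expansin-like EXLB1, with values given below. EXPA7 averaged 8.20 ± 2.03 in NAA+AA seedlings against 137 ± 33.0 in NAA seedlings, and 4.99 ± 0.33 in B5+AA against 28.6 ± 10.4 in B5 seedlings (SD, n = 3 each). EXPA18 averaged 43.5 ± 10.7 in NAA+AA against 410 ± 75 in NAA seedlings, and 15.9 ± 0.43 in B5+AA against 129 ± 30.2 in B5 seedlings. Both rose with NAA without antimycin A (log2 changes of 1.78 and 1.56) and fell with antimycin A on NAA medium (-2.64 and -2.84) and on B5 (-1.06 and -2.16). In B5 seedlings both lay above the TrpnX range on every array. The summed intensity of these 2 root hair markers was 45.0 to 64.1 in NAA+AA, 467 to 648 in NAA, 20.7 to 21.2 in B5+AA and 124 to 202 in B5 seedlings. In B5+AA seedlings EXPA7 read 4.68, 4.96 and 5.34, in or below the TrpnX range. The sum of 4 lateral root markers of 5 fixed (LBD16, LBD29, PUCHI, AT5G14650) was 262 to 306 in NAA+AA, 782 to 1094 in NAA, 48.3 to 85.4 in B5+AA and 115 to 178 in B5 seedlings. Its members did not move together. With antimycin A on NAA medium 3 were called lower, while LBD16 was called higher (94.5 ± 4.05 in NAA+AA and 37.5 ± 7.08 in NAA seedlings, log2 change 1.05, adjusted p = 0.000116 by limma). On B5 only AT5G14650 of the 4 was called lower (38.1 ± 19.0 in B5+AA and 110.04 ± 37.0 in B5 seedlings). The sum of the 4 shoot markers was 8913 to 12103 in NAA+AA, 22902 to 23744 in NAA, 19768 to 24458 in B5+AA and 35438 to 35678 in B5 seedlings. With antimycin A LHCB4.2 and PSAN were called lower on both media, PSAE-1 on NAA medium only (adjusted p on B5 0.107) and PRK on B5 only (adjusted p on NAA medium 0.189), by limma, and the difference between media was called for PSAE-1 (-0.72) and not for PRK (0.74, adjusted p = 0.0537). The part of such shifts in the values of EXPB1 and EXPB2 was not tested.

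EXPA15, EXPA8 and EXPA4 fell with antimycin A on B5 (-2.53, -3.24 and -1.78), and EXPA15 alone of these 3 was called lower with NAA without antimycin A as well (-0.95, adjusted p = 0.0146 by limma), as EXPB1 was. EXPA9 was called in all 4 simple comparisons, lower with antimycin A on NAA medium and on B5 (-1.40 and -1.36) and higher with NAA without and with antimycin A (0.79 and 0.76). The remaining 4 alpha-expansins (EXPA16, EXPA20, EXPA21, EXPA24) were not called in these 4 comparisons. Among the expansin-like genes, EXLA1 and EXLA3 rose with antimycin A on B5 (1.94 and 0.92), EXLA1 rose with NAA without antimycin A (1.38), and EXLA3 and the dim EXLA2 rose with antimycin A on NAA medium (1.15 and 0.19). EXLB1 fell with antimycin A on both media (-0.92 on NAA medium and -1.43 on B5) and rose with NAA without and with antimycin A (1.79 and 2.30).

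**Figure D3:**
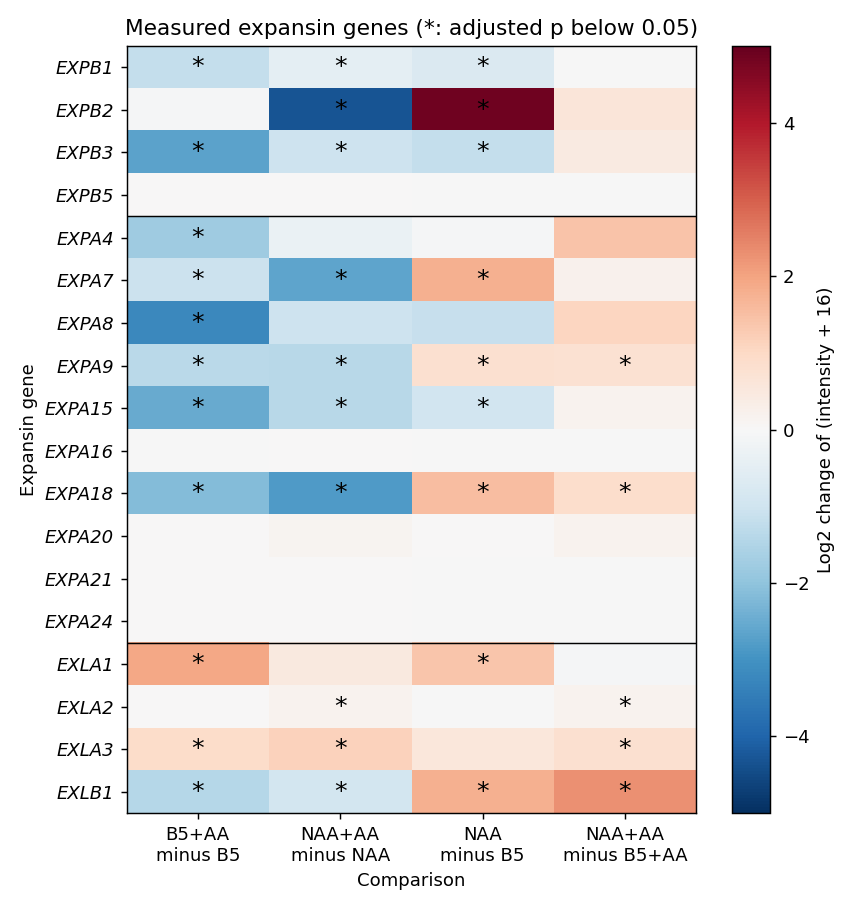
Log2 change of (intensity + 16) of 18 expansin genes (rows; beta, alpha and expansin-like, separated by lines) in 4 comparisons (columns), with a star where the adjusted p was below 0.05. EXPB2 holds the highest (4.88) and the lowest (-4.33) value, and EXPB1 and EXPB3 share a star and a fall in the first 3 columns.

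Values of other wall-remodelling families follow the expansins. Of 9 XTH genes, whose enzymes cut and rejoin xyloglucan, 3 were called higher and 2 lower with antimycin A on NAA medium, and 4 higher and 1 lower on B5, with medians of 0.19 and 0.42. Over all probe sets the shares were 11.6% higher and 13.2% lower on NAA medium, and 14.3% higher and 18.7% lower on B5. XTH18 rose most on both media (2.63 and 4.64). XTH26 shared the directions of EXPB2 on NAA medium. It averaged 4.81 ± 0.19 in NAA+AA, 15.6 ± 3.81 in NAA, 4.89 ± 0.04 in B5+AA and 4.75 ± 0.07 in B5 seedlings, with a rise with NAA of 0.60 (adjusted p = 0.000396 by limma) and a fall with antimycin A on NAA medium of -0.60 (adjusted p = 0.000275). With NAA 4 XTH genes were called higher and 1 lower without antimycin A, XTH19 by 1.42, and 2 higher and 2 lower with it, against the shares of all probe sets given for the expansins. Of the 3 measured pectin genes, 2 were called lower with antimycin A on each medium, PME61, named as a pectin methylesterase (-0.67 on NAA medium and -0.58 on B5), and the locus AT5G14650 (-2.82 and -1.24). AT5G14650 rose with NAA without antimycin A (2.19) and PME61 fell (-0.77). With antimycin A, PME61 alone was called lower with NAA (-0.86), and PMEPCRF was not called in any comparison.

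The genes whose pattern over the 12 arrays was most like that of each member were found by Pearson correlation of log2(intensity + 16) over 13512 other single-gene probe sets. The arrays fall into 4 groups, so that r describes the group pattern and not an association within groups. Genes were picked for likeness on these same arrays, so that their shared directions and calls follow from the choice and are no separate result. For EXPB2 the 6 most like were AT5G02640 (r = 0.993), AT3G46720 (0.991), AT3G62730 (0.990), AT5G65320 (0.987), FACT (0.987), which is named as a fatty alcohol caffeoyl-CoA caffeoyl transferase, and AT3G59850 (0.986). All 6 were brightest in NAA seedlings, with means of 15.7 to 133, and were called higher with NAA without antimycin A and lower with antimycin A on NAA medium. AT3G62730, for example, had a mean of 5.32 ± 1.63 in NAA+AA, 54.35 ± 5.16 in NAA, 4.12 ± 0.12 in B5+AA and 4.16 ± 0.10 in B5 seedlings. The 3 least like were Cpn60beta2, a subunit of the plastid chaperonin (r = -0.951), AT1G22690 (-0.938) and AT5G54170 (-0.931). Of the expansins EXPA7 was the most like EXPB2 (r = 0.891, rank 146), then EXPA18 (0.818, rank 334), EXPA9 (0.774, rank 501) and EXLB1 (0.764, rank 538).

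For EXPB1 the 6 most like were AT2G03750 (r = 0.974), AT4G28780 (0.972), AT1G60590 (0.971), AT3G21950 (0.964), AT2G34620 (0.962) and AT2G20670 (0.962). All 6 were brightest in B5 seedlings, with means of 60.8 to 352, and all 6 were called lower with antimycin A on B5 and with NAA without antimycin A. These shared traits, too, follow from how the genes were picked. AT2G34620 averaged 6.75 ± 0.37 in NAA+AA, 69.3 ± 9.38 in NAA, 8.97 ± 2.71 in B5+AA and 237 ± 31.8 in B5 seedlings. The 3 least like were FYD (r = -0.971), AT1G24530 (-0.971) and AT1G74790 (-0.966), which were lowest in B5 seedlings. Among the expansins EXPA15 (r = 0.952, rank 18) and EXPB3 (0.949, rank 22) were the most like EXPB1 and EXLA1 the least (-0.908). EXPB1 and EXPB2 correlated at 0.02 with each other.

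**Figure D4:**
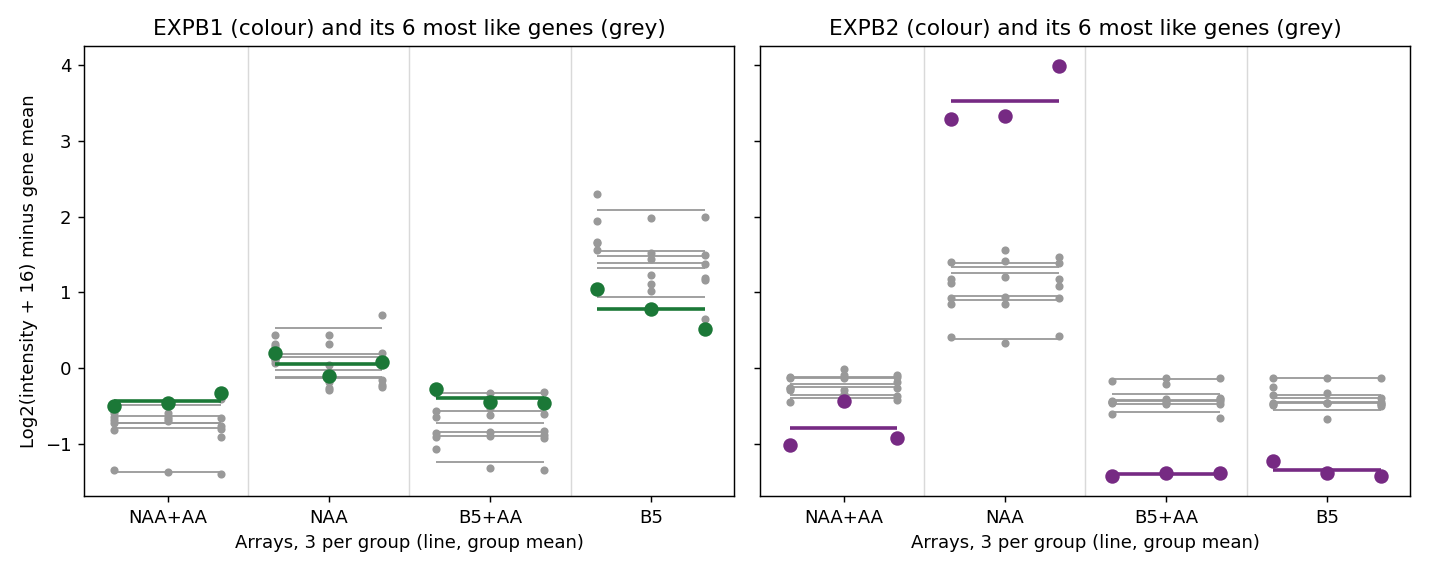
Log2(intensity + 16) minus each gene's mean over the 12 arrays, for EXPB1 (left) and EXPB2 (right) in colour and the 6 genes most like each in grey, with a point per array and a line at each group mean. EXPB2 and its 6 genes peak in NAA seedlings, EXPB1 and its 6 genes in B5 seedlings.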

How the data were processed

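Transcripts were measured on 12 ATH1 arrays, from biotin-labelled RNA made from 400 ng of total RNA per the labels' protocols. The authors deposited linear intensity values, 1 per probe set and array. MAS5, RMA and Partek appear in the submitters' processing notes, which do not say here which of them made the values. The 75th percentiles were nearly equal over arrays (164 to 174). The medians differed by medium without overlap, at 33.7 to 36.2 on the B5 and B5+AA arrays and 38.8 to 39.7 on the NAA and NAA+AA arrays. Detection calls were not used here.

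Of 22810 rows, 64 controls were left out. Genes came from the array annotation and the RefSeq table of assembly TAIR10.1, matched by gene ID (13436 of 13513 single-gene probe sets). A gene is called measured if this annotation names it by a single-gene probe set. It left 8730 probe sets unnamed, so that genes not counted as measured may still have a probe set on the array. limma 3.58.1 in R 4.3.3 was fitted to log2(intensity + 16) with 4 group means (8 residual degrees of freedom), and was tested on simulated data. Errors are SD of intensities or SE of log2 changes. Groups and replicate numbers came from the sample titles. Same-numbered arrays were not taken as pairs, since only 5 of 18 such pairs had deviations correlated above 0.1 (range -0.12 to 0.38), so no block was used. Precision is limited by 3 arrays per group. The members, gene lists and tests were chosen with earlier results of these data known. Named genes are the members, the measured expansin, XTH and pectin genes (up to 6 alpha-expansins and 3 others per comparison by adjusted p), the treatment checks, and the 6 most and 3 least like genes; further family members and the order of levels were added after values were seen. Alternatives changed the pseudocount, the normalization, filters on dim probe sets, the variance model, array weights, a replicate block, the groups in the fit and each array in turn. Root epidermis, stele and pollen markers and promoter sequences were not analysed here.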

Additional observations from a re-analysis of the deposited data

Results flagged for a closer look

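The interaction contrast of limma, the antimycin A effect on NAA medium against that on B5, was called for both genes. For EXPB2 the effect on NAA medium minus that on B5 was -4.27 on the log2 scale (adjusted p = 0.000102 by limma). Its B5+AA and B5 means (5.33 and 6.21) were near the TrpnX controls, where a fall of the size seen on NAA medium could not have shown. For EXPB1 this contrast was 0.69 (adjusted p = 0.0458 by limma), a call lost in 15 of 21 alternatives. Its NAA+AA and B5+AA means (7.62 and 8.18) were near those controls. The contrast equals its change with NAA in the presence of antimycin A (-0.03) minus that in its absence (-0.72), so that its closeness in size to the latter is no separate result. Groups of 3 arrays were too small for a test of outlying arrays.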

How the results depend on the processing

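Both large changes of EXPB2 kept their direction and call in all 23 alternatives (rise with NAA 3.32 to 6.49, fall with antimycin A on NAA medium -5.22 to -3.12), and so did the falls of EXPB1 with antimycin A on B5 (-2.12 to -0.51) and with NAA (-1.13 to -0.34) in the 21 that gave a value. These falls of EXPB1 share the same B5 arrays and are not independent of each other. Both filters on dim probe sets removed EXPB1. EXPB2 passed them only through its NAA arrays, so that the filtered fits are no separate support for any change of EXPB2. The fall of EXPB1 with antimycin A on NAA medium kept its call in 16 of 21 alternatives. It lost the call with a pseudocount of 64 (-0.18) and without NAA replicate 1 or 3 or NAA+AA replicate 1 or 2, and ranged from -0.57 to -0.42 with 1 array left out. For EXPB1 the contrast between media kept its call in 6 of 21 alternatives. It lost the call with array weights (0.57), pseudocounts of 1 (1.05) and 64 (0.33) and robust eBayes (0.69, adjusted p = 0.0506). With 1 array left out it ranged from 0.56 to 0.82, and kept the call only without B5 replicate 3. EXPB2 gained a call in NAA+AA against B5+AA with either filter or a mean-variance trend (0.61), quantile normalization (0.60) or a pseudocount of 1 (1.43), and against B5 with either filter or the trend (0.55), array weights (0.43) or a pseudocount of 1 (1.27). With 1 array left out these ranged from 0.43 to 0.72 and from 0.38 to 0.66, and both gained the call without NAA replicate 3. That array is in neither comparison, so that leaving it out changed the shared spread of the fit and not these log2 changes. The causes of the other gains were not tested. Median centring shifted the median of all probe sets by -0.10 with NAA without antimycin A and by -0.13 with it, and called 12002 and 13365 probe sets there and 14424 in NAA+AA against B5, of which 17.8%, 17.8% and 24.1% were higher, against 4637, 4994 and 7573 without centring, of which 52.6%, 55.6% and 51.5% were higher. Expansins called with NAA moved to 15 under median centring without antimycin A, and with it to 9 under median centring and 8 and 3 with pseudocounts of 1 and 64. For the difference of the antimycin A effects between media, 6 of the 18 expansins, the members included, were called, 4 higher and 2 lower. Of all probe sets 5.14% were called higher and 4.39% lower. That count of 6 ranged from 2 to 6 with 1 array left out, with 3 or fewer without B5 replicate 1 or 2, B5+AA replicate 3, or NAA+AA replicate 2 or 3. The replicate block changed no call of EXPB1 or EXPB2 (the fall of EXPB2 with antimycin A on NAA medium had an adjusted p of 2.67e-05, its value in NAA+AA against B5+AA one of 0.0878) and moved no count of calls by over 1.5 times. The unequal change of the 2 genes with NAA stayed between 1.95 and 4.57 (exact p 0.005 to 0.01) in 16 alternatives. Low signal limits every value under about 8, the upper end of the TrpnX controls.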

Other observations

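The genes next to EXPB1 and EXPB2 in the RefSeq order were also read. Of the 5 protein-coding loci on either side, 7 of 10 were measured for EXPB1 and 2 of 10 for EXPB2, by probe sets that the annotation used names. Of the measured neighbours of EXPB1, 0 of 7 were called lower with antimycin A on B5 by limma (18.7% of all probe sets were) and 3 were called higher (14.3% of all were), AT2G20720, AT2G20725 (0.61, adjusted p = 0.00158) and AT2G20780 (1.21, adjusted p = 0.00062). With NAA without antimycin A, AT2G20725 alone of them was called, and lower (-0.45, adjusted p = 0.0148 by limma), as were 9.67% of all probe sets. With antimycin A on NAA medium AT2G20790 was called lower (-0.42, adjusted p = 0.0285 by limma), as were 13.2% of all, and AT2G20720 higher. Of the measured neighbours of EXPB2, 0 of 2 were called higher with NAA without antimycin A, against 10.7% of all probe sets (adjusted p of 0.443 and 0.757 by limma). AT2G20720, the third locus before EXPB1, read 344, 317 and 387 on the NAA+AA arrays, 6.46, 5.77 and 5.75 on the NAA arrays, 974, 687 and 1059 on the B5+AA arrays and 5.74, 6.09 and 6.37 on the B5 arrays. It was at the low end of the array without antimycin A and bright with it on both media, with log2 changes of 4.05 on NAA medium (adjusted p = 3.4e-07 by limma) and 5.36 on B5 (adjusted p = 4.66e-08), where EXPB1 fell. AT2G20740 and AT2G20760, the loci directly beside EXPB1, were not called in any of the 6 comparisons. Of the measured neighbours of EXPB2, AT1G65690 was not called with NAA or with antimycin A on NAA medium (0.26 and 0.43). It was called higher with antimycin A on B5 (0.72, adjusted p = 0.0211 by limma). AT1G65720 fell by 0.31 with antimycin A on NAA medium (adjusted p = 0.0278 by limma). These loci were chosen for their position after the values of EXPB1 and EXPB2 were known.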
